A study of Mus musculus with 8 samples.

Results

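The stefin A genes and cystatin B were followed across cells with an empty vector, the leukaemia fusion NUP98-HOXA9, or one of its deletion mutants. Stefins are small inhibitors that stay inside the cell, where they bind the active site of papain-like cysteine proteases such as the lysosomal cathepsins. Stefin A is a single gene in humans, whereas in mice it has been copied into a cluster of closely related genes whose products are known from neutrophils, other myeloid cells and skin. Cystatin B (Cstb, also called stefin B) is a single gene of the same family, active in most tissues, and its loss in humans causes a progressive myoclonus epilepsy.

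Members were chosen by symbol. They are the 7 genes Stfa1, Stfa2, Stfa3, Stfa2l1, Csta3, Cstdc6 and Cstb, of 21335 gene symbols on the array, and every probe set whose annotation includes one of these symbols was taken. This gave 7 probe sets, 6 for stefin A and 1 for Cstb. No filter on low values was used, so all 7 entered. Of the stefin A probe sets, 1 is shared by Stfa1, Cstdc5 and Cstdc6 and 1 by Stfa2l1 and Stfa2, and the other 4 carry the single symbols Stfa2, Stfa3, Csta3 and Cstdc6. As the copies are nearly identical, a signal cannot be assigned to 1 copy with certainty, also where 1 symbol is given. Low values of Stfa3 and Stfa2 in full-length fusion cells, relative to empty vector cells, were among the results known when the genes were chosen, and results for the mutants may have been known too. Differences of the members in any comparison that includes the empty vector or the full-length fusion, and counts of those past a threshold there, are therefore a description and not a test.

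Total RNA of mouse cells of strain C57BL/6 was hybridised to 8 arrays, in 4 groups of 2. The groups are cells with an empty vector, cells with full-length NUP98-HOXA9, and cells with the mutants NUP98-HOXA9 delFG1 and NUP98-HOXA9 delFG2. In the fusion, the end of the nuclear pore protein NUP98 that carries repeats of phenylalanine and glycine (FG) is joined to the homeodomain end of HOXA9. The labels name neither the kind of cell nor the vector, nor what delFG1 and delFG2 remove, so there was no labelled cell type to check against markers. Each group has an array numbered 1 and an array numbered 2. Whether both came from separate cultures is not said, and the p-values then reflect the spread between these arrays alone, which may be technical.

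In the RefSeq gene table the stefin A cluster spans 12 protein-coding genes in the order Csta1, Stfa2l1, Cstdc4, Csta3, Csta2, Stfa1, Cstdc3, Cstdc6, Cstdc5, Gm7260, Stfa2 and Stfa3, of which 9 are named on at least 1 probe set. Cstb lies on another chromosome. RefSeq promoter sequences (build GRCm38.p6) were found for 5 of the 7 members. The 150 bases before the annotated start are printed below to show how alike the copies are at their starts, each 5′ to 3′ on the strand of its gene, with the run TTTAAAA in capitals.
Stfa2l1 (chr16:36156661-36156810, plus strand): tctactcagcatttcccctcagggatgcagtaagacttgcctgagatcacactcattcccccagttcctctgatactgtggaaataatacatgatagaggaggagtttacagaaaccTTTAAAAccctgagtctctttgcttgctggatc
Stfa2 (chr16:36408364-36408513, minus strand): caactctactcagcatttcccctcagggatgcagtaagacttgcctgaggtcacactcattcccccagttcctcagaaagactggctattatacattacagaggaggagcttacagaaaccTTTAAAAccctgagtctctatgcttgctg
Stfa1 (chr16:36276998-36277147, plus strand): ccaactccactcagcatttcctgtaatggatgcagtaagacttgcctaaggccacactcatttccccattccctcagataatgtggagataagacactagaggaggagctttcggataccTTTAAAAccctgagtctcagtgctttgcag
Stfa3 (chr16:36455393-36455542, minus strand): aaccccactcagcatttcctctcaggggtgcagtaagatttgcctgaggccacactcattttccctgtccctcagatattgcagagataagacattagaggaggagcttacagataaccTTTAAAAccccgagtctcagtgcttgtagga
Csta3 (chr16:36210253-36210402, plus strand): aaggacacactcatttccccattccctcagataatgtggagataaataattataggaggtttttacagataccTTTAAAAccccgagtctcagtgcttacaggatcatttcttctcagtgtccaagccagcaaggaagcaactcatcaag

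The windows of Stfa1, Stfa2, Stfa3 and Stfa2l1 shared between 80.7% and 88.7% of their 150 bases in global alignments. Csta3 shared 55.3% to 60.7% with those 4. TTTAAAA, chosen after the sequences were read and resembling the A and T rich element found a short way before the start of many genes, stood in 5 of 5 member windows and in 4.2% of all 32851 windows of this length. On the strand of the gene and with its first base 21 to 45 bases before the start, it stood in 4 of the 5 and in 0.615% of all windows. In Csta3 it begins 77 bases before the start, and in the other 4 members 29 to 33 bases before it. The Csta3 window is thus cut at a shifted place and does not cover the same stretch as the others. Its lower share of identical bases does not measure how far matching stretches differ. Among the 10 windows found for the cluster, members and others, the run stood in 8. These windows belong to related copies, so the counts are not of independent windows.

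All motifs were searched on both strands, and no matches overlapped in the member windows. GAGGAA, the core bound by ETS factors such as PU.1, was found in Stfa2l1, Stfa2 and Stfa3, against 14.5% of all windows. TTGCNNAA, the pattern of C/EBP factors of myeloid cells, was found in Stfa1 alone of the 5, against 5.46% of all windows. TGATNNAT, a pattern read by HOX and PBX proteins together, was in 0 of 5 and in 4.12% of all windows. CCAAT (24.5% of all windows) and TATAAA (7.57%) were each in 0 of 5, and GGAGGAG, also chosen after reading, was in 4 of 5 and in 10.8% of all. A match is a description of letters and not of a bound factor.

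Levels are intensities on a linear scale as deposited, and differences are on the scale log2(intensity + 1). The brightest stefin signal was that of the probe set shared by Stfa1, Cstdc5 and Cstdc6. Its intensity was 4465 and 5109 on the empty vector arrays numbered 1 and 2, 1577 and 1931 with the full-length fusion, 1459 and 2410 with delFG1, and 3151 and 4309 with delFG2. Both full-length and both delFG1 arrays lay below every empty vector and delFG2 array, and the delFG2 arrays lay just below the empty vector arrays. The difference between full-length fusion and empty vector was -1.45 ± 0.23 (SE of the fit of all 8 arrays).

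The probe set shared by Stfa2l1 and Stfa2 read 2701 and 3365 with the empty vector, 1045 and 1537 with the full-length fusion, 1046 and 1761 with delFG1, and 2058 and 2905 with delFG2. The order of the groups was the same, but the delFG2 array numbered 2 exceeded the empty vector array numbered 1. The log2 difference between full-length fusion and empty vector was -1.25 ± 0.28 (SE).

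Stfa2, on its own probe set, read 1703 and 2325 with the empty vector, 382.8 and 620.1 with the full-length fusion, 478.4 and 800.4 with delFG1, and 1006 and 1787 with delFG2. The full-length and delFG1 arrays were low and overlapped each other, while delFG2 overlapped the empty vector. The log2 difference between full-length fusion and empty vector was -2.03 ± 0.35 (SE).

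Stfa3 had the widest spread of the members. Its intensity was 404.1 and 612.8 with the empty vector, 69.9 and 78.2 with the full-length fusion, 72.6 and 109 with delFG1, and 161.8 and 308.2 with delFG2. All 4 delFG2 and empty vector arrays exceeded all 4 full-length and delFG1 arrays, and delFG2 stayed below the empty vector on both arrays. The log2 difference was -2.73 ± 0.32 (SE) with the full-length fusion, a 6.65-fold lower level, and -1.15 with delFG2, a 2.22-fold lower level, each against the empty vector. Both full-length arrays and the delFG1 array numbered 1 read below the array medians of 80.7 to 83.2. At its lowest, Stfa3 was brighter than 42.2% of the named probe sets. Without detection calls, whether these low values are above background is not known, and the 6.65-fold difference rests on them.

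Csta3 and Cstdc6 gave dim signals, brighter than 15% to 47.8% of the named probe sets of an array for Csta3 and than 43.6% to 58.3% for Cstdc6. Csta3 read 71.7 and 91.6 with the empty vector, 34.2 and 35.9 with the full-length fusion, 30.8 and 41.5 with delFG1, and 52.4 and 73.6 with delFG2. Cstdc6 read 192.1 and 136.6 with the empty vector, 92.3 and 84.8 with the full-length fusion, 72.8 and 80.5 with delFG1, and 138.7 and 133.8 with delFG2. For both, every full-length and delFG1 array lay below every empty vector and delFG2 array, with log2 differences between full-length fusion and empty vector of -1.19 ± 0.19 and -0.87 ± 0.16 (SE). No detection calls come with the table, so whether their lowest values are above background is not known.

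Cstb was bright and differed less from the empty vector than the stefin A probe sets did. It read 2482 and 3494 with the empty vector, 2173 and 2716 with the full-length fusion, 2176 and 2602 with delFG1, and 2278 and 3032 with delFG2. The groups overlapped in every comparison, and the arrays numbered 2 were the higher ones in each group. The log2 difference between full-length fusion and empty vector was -0.28 ± 0.20 (SE).

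**Figure D1:**
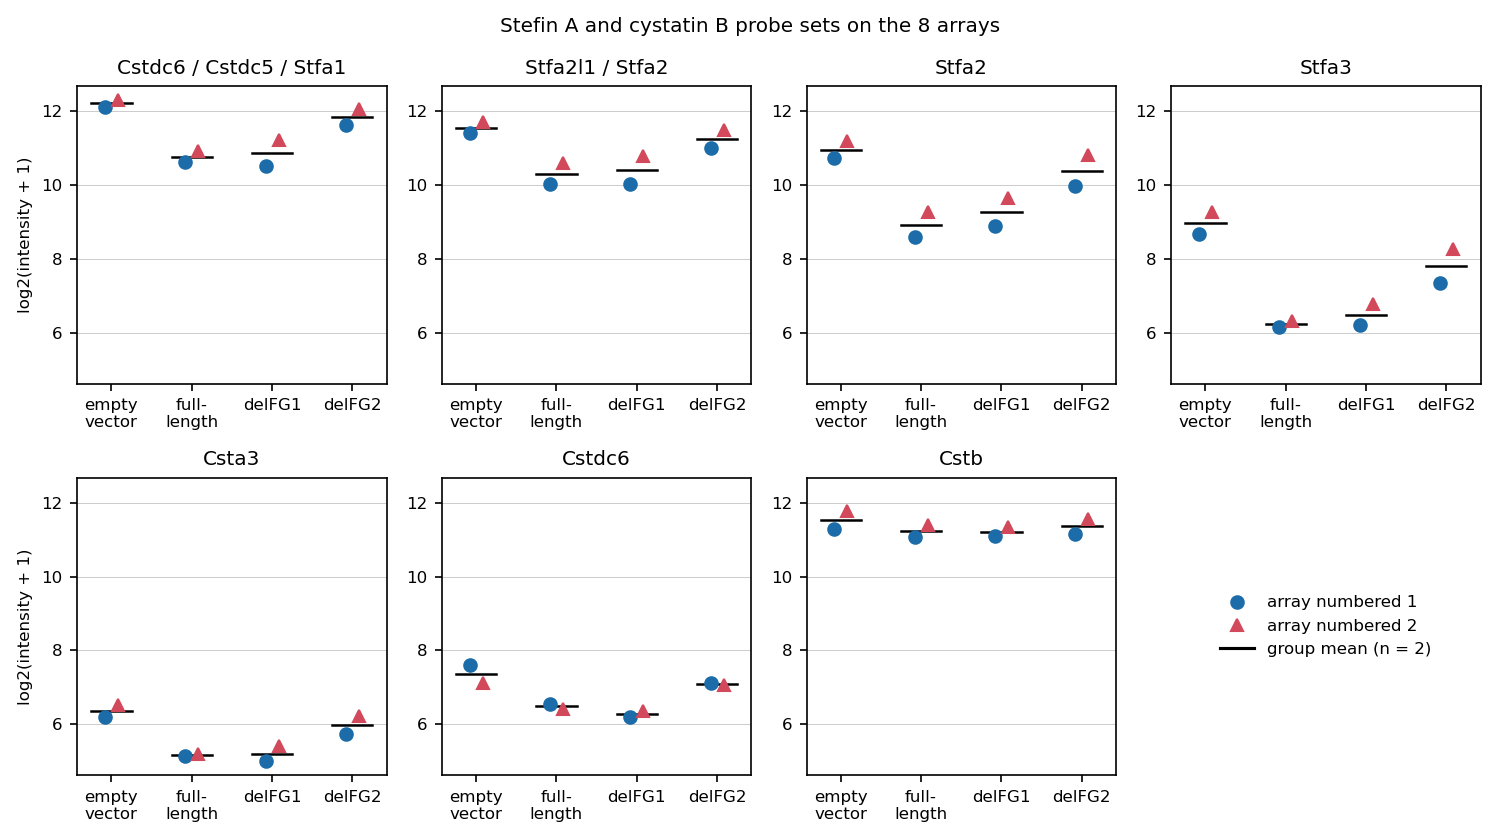
Level of each member probe set, as log2(intensity + 1), on the 8 arrays, with circles for arrays numbered 1, triangles for arrays numbered 2 and bars for the mean of each group (n = 2). The 6 stefin A probe sets are low with the full-length fusion and delFG1 and nearer the empty vector with delFG2, while Cstb stays between 11.09 and 11.77.

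Against the empty vector, the 6 stefin A probe sets were lower in all 3 fusion groups, by a median log2 difference of -1.35 with the full-length fusion, -1.25 with delFG1 and -0.38 with delFG2. These comparisons share the empty vector arrays. The median over all 23410 named probe sets was 0.02, 0.02 and 0.01, and 90% of them lay between -0.32 and 0.27 with the full-length fusion. From probe set to probe set the values with the full-length fusion and delFG1, in that order, were -2.73 and -2.47 for Stfa3, -2.03 and -1.68 for Stfa2, -1.45 and -1.35 for the Stfa1 probe set, and -0.87 and -1.07 for Cstdc6. For all 6, both arrays with the full-length fusion lay below both empty vector arrays, as for 15.2% of all probe sets, and so did both delFG1 arrays, as for 15.8%. With delFG2 this held for the Stfa1 probe set and Stfa3, and for 12.7% of all. Between arrays of the same number, delFG2 was below the empty vector in both numbers for all 6. The differences were -0.76 and -0.38 for Stfa2 and -0.47 and -0.03 for Cstdc6. How many of all probe sets were lower in both numbers was not counted, so nothing is concluded from this agreement. In bulk RNA, fewer cells of a type and less RNA per cell cannot be told apart.

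By limma with Benjamini-Hochberg adjustment over all named probe sets, 1 of the 6, Stfa3, was past an adjusted p of 0.05 with the full-length fusion without the number as a block, where 0.0214% of all probe sets were called lower. With the number as a block all 6 stefin A probe sets and Cstb were past it, beside 4.12% of all. With delFG1 the counts were 1 of 6, again Stfa3, beside 0.0342%, and with the block all 6 and Cstb, beside 3.9%. With delFG2 0 were past it without the block (beside 0% of all), and 2 with it, Stfa2 (-0.57) and Stfa3 (-1.15), beside 0.35%. Since the genes were chosen with such differences known and all 3 comparisons share the empty vector arrays, these counts describe the members and are no evidence of their own. Without the block, the single call of Stfa3 with the full-length fusion was lost when either array of the empty vector or of the full-length fusion was left out, with quantile normalization and without an intensity trend, while 2 were called without either delFG1 array and 3 when only the 4 arrays of the groups compared entered the fit. With delFG1, Stfa3 was no longer called without either empty vector array, either full-length array or the delFG1 array numbered 1. The 2 calls of delFG2 with the block became 0 without the empty vector array numbered 1 or the delFG2 array numbered 1, 4 without the empty vector array numbered 2, and 1 without any other single array.

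**Figure D2:**
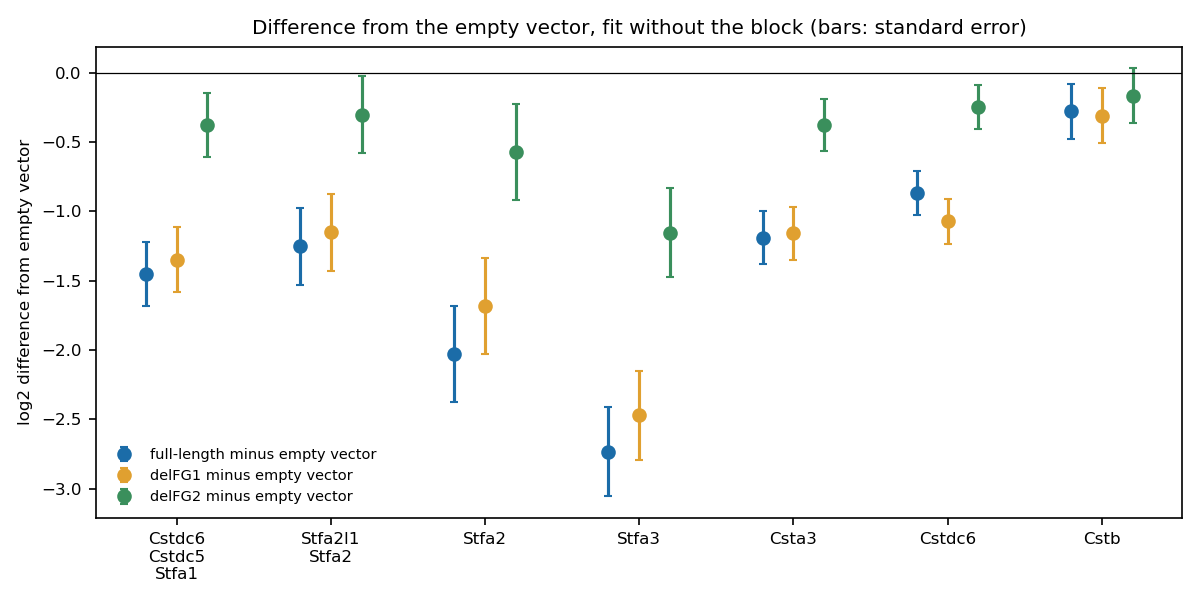
Log2 difference of each member probe set from the empty vector for the full-length fusion, delFG1 and delFG2, with the standard error of the fit of all 8 arrays without the block. Stfa3 lies at -2.73, -2.47 and -1.15, and the Cstb values lie between -0.31 and -0.16.

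Against the full-length fusion, delFG1 left the stefin A probe sets near the fusion's level and delFG2 did not. Log2 differences of delFG1 from the full-length fusion ran from -0.21 for Cstdc6 to 0.34 for Stfa2, with a median of 0.10, and 0 of 6 were past the threshold in either fit. Over all probe sets 0% were called higher and 0.00854% lower without the block, and 0.0214% and 0.0555% with it. In 5 of 6 the arrays of these groups overlapped, the exception being Cstdc6, for which both delFG1 arrays lay below both full-length arrays, as for 12.3% of all probe sets, while for 13.1% both lay above. Differences of delFG2 from the full-length fusion ran from 0.62 for Cstdc6 to 1.58 for Stfa3, with a median of 1.01, and for all 6 both delFG2 arrays lay above both full-length arrays, as for 11.7% of all probe sets. As a description, since the full-length arrays were among those known, 0 of the 6 were past the threshold without the block (0% of all called higher), and with it 5, all but Cstdc6, beside 0.286% of all. That count fell to 2 without the delFG2 array numbered 1, to 1 without the one numbered 2, and to 3 without the full-length array numbered 2.

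Tests are given for the difference between the mutants, which takes no value from the empty vector or full-length arrays. The spread and the block effect behind its p-values were estimated from all 8 arrays, those included. Results for the mutants may also have been known when the genes were chosen, so these p-values may not be free of that choice. For all 6 stefin A probe sets both delFG2 arrays lay above both delFG1 arrays, as for 11.5% of all probe sets. The log2 difference was 1.32 ± 0.32 (SE) for Stfa3, 1.11 ± 0.35 for Stfa2, 0.97 ± 0.23 for the Stfa1 probe set, 0.85 ± 0.28 for that of Stfa2l1 and Stfa2, 0.82 ± 0.16 for Cstdc6 and 0.78 ± 0.19 for Csta3. The median of the 6 was 0.91, against -0.01 over all probe sets.

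Without the block 0 of the 6 passed, as did 0 of all probe sets, and each had an adjusted p of 0.9999 by limma, although all 6 had an unadjusted p under 0.05, as did 718 of 23410. With the block all 6 rose, beside 0.367% of all probe sets called higher. The adjusted p by limma with the block was 0.00529 for Stfa2, 0.00563 for the Stfa1 probe set and for that of Stfa2l1 and Stfa2, 0.00961 for Stfa3, 0.0155 for Csta3 and 0.0405 for Cstdc6. For Cstb the difference was 0.14 ± 0.20 (SE), with a limma adjusted p of 0.9999 and, with the block, 0.638. Calls with the block fell to 0 of 6 when either delFG2 array was left out or when no intensity trend was used, and to 2 without the delFG1 array numbered 1.

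**Figure D3:**
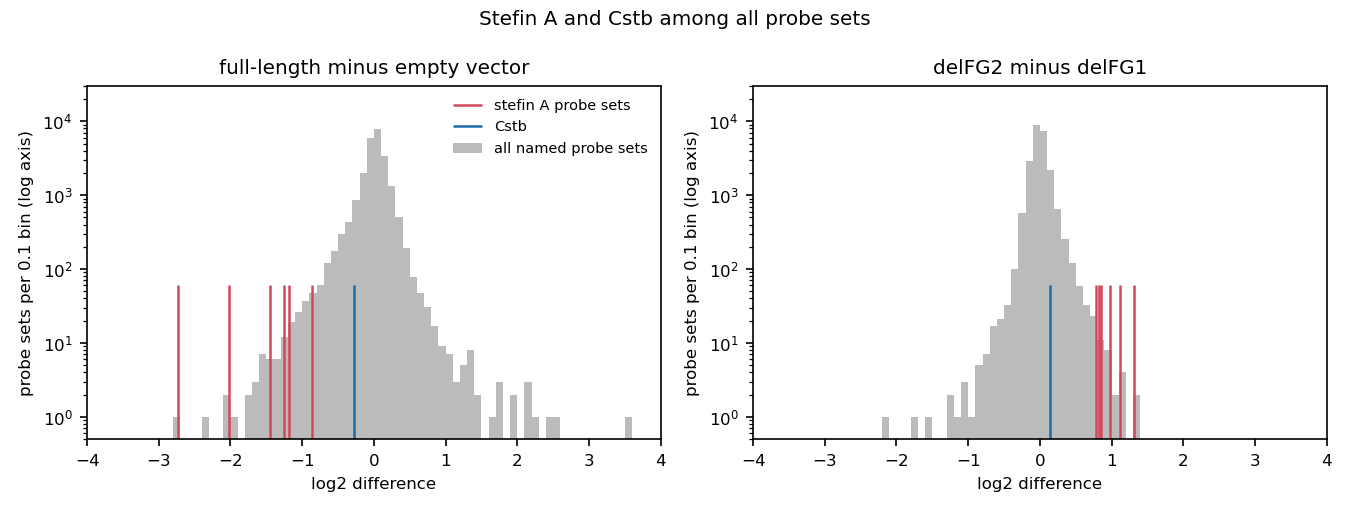
Number of named probe sets in bins of 0.1 of the log2 difference (log axis), for full-length fusion minus empty vector and for delFG2 minus delFG1, with vertical lines at the stefin A probe sets and Cstb (line height has no meaning). The stefin A lines lie on the lower edge from -2.73 to -0.87 in the first comparison and on the upper edge from 0.78 to 1.32 in the second.

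Within the arrays of 1 number, all 6 stefin A probe sets kept both directions. This must hold where the arrays of the groups compared do not overlap. Such arrays were found for 15.2% of all probe sets in the first comparison below and 11.5% in the second. For Stfa3 the full-length fusion differed from the empty vector by -2.51 among arrays numbered 1 and -2.95 among those numbered 2, and delFG2 from delFG1 by 1.15 and 1.49. For Stfa2 these differences were -2.15 and -1.91, and 1.07 and 1.16. For Cstb the full-length fusion differed from the empty vector by -0.19 and -0.36, and delFG1 from the empty vector by -0.19 and -0.43. Cstb differed between delFG2 and delFG1 by 0.07 and 0.22.

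Most members also differed between the numbers. Arrays numbered 2 were higher than those numbered 1 in all 4 groups for 6 of the 7 member probe sets, and these 6 passed by limma, beside 6.35% of all probe sets called higher. Stfa2 was higher by 0.68 ± 0.07 (SE, adjusted p = 0.000295 by limma), the probe set of Stfa2l1 and Stfa2 by 0.53 ± 0.06 (adjusted p = 0.000735), and Cstb by 0.37 ± 0.05 (adjusted p = 0.00087). Stfa3 was higher by 0.57, the Stfa1 probe set by 0.42 and Csta3 by 0.33. Cstdc6 differed by -0.13 with a limma adjusted p of 0.466 and was higher in 1 of 4 groups. Its difference between the numbers was -0.49 with the empty vector and 0.14 with delFG1. For Cstb the difference between the numbers was larger than that between full-length fusion and empty vector. The labels do not say what a number marks.

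Over the 8 arrays the stefin A probe sets correlated with each other with Pearson's r from 0.796 to 0.989 in 15 pairs, the lowest values being those with Cstdc6. Some of these pairs share sequence, and all share arrays and the axes of group and number. Cstb correlated with them with r from 0.327 to 0.784.

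Genes most like the mean of the stefin A probe sets were sought among 589 genes with a range of at least 1 on the log2 scale, of which 17.7% had r above 0.9. The 10 highest were Adgrl2 (r = 0.991), an adhesion receptor of the latrophilin family, Hcar2 (0.991), the receptor of nicotinic acid and ketone bodies, Myof (0.987), a membrane repair protein, the potassium channel gene Kcnn3 (0.973), Cd300lf (0.972), an inhibitory receptor of myeloid cells, the histidine ammonia-lyase gene Hal (0.969), the kinase gene Dapk1 (0.969), the cytokine gene Il6 (0.969), the nuclear lamin gene Lmna (0.967) and the protein kinase C theta gene Prkcq (0.966). Adgrl2 had group means of 10.32 with the empty vector, 9.14 with the full-length fusion, 9.20 with delFG1 and 9.82 with delFG2 on the log2 scale. Most opposite were Ms4a4c (r = -0.974), Nfxl1 (-0.962), St7 (-0.961), Crim1 (-0.959) and Cd27 (-0.954). For Cstb, 3196 genes with a range of at least 0.5 were compared, of which 12.1% had r above 0.9. The highest were the eosinophil granule genes Prg3 (0.991) and Prg2 (0.989), then Slc28a3 (0.987), Mlph (0.985) and Pde8a (0.984). Like Cstb, Prg3 and Prg2 were higher in the arrays numbered 2, by 0.75 and 0.71.

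The papain-like proteases that stefins bind were measured on the same arrays. They are the cysteine cathepsins, listed here with legumain (Lgmn), which is not papain-like. Of these 11 genes, 0 passed by limma without the block between full-length fusion and empty vector. An unadjusted p under 0.05 was found for 7 of them, as for 2218 of all 23410 probe sets. With the block 6 fell and 0 rose, and the median of the 11 was -0.36, against 0.02 over all probe sets. Of all 23410 probe sets, 964 were called lower and 487 higher with the block in this comparison, also beside the lists below. Ctsk, the cathepsin of bone-resorbing cells, had a log2 difference of -1.38 ± 0.27 (SE; adjusted p 0.153, and 6.56e-05 with the block). Ctss, which works in antigen presentation, had -0.82 (0.243, and 0.000348 with the block). Ctsb had -0.44, Ctsc, which activates granule serine proteases, -0.28, Ctsh -0.48 and Lgmn -0.68, all past the threshold with the block alone. Ctsl (-0.33), Ctso (-0.36), Ctsf (-0.17), Ctsz (-0.12) and Ctsw (0.03) passed in neither fit.

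Mean levels of Ctsk and Ctss with delFG2 stood above those with the full-length fusion and below those with the empty vector, as did the stefins. Between delFG2 and full-length fusion Ctsk differed by 0.72 (limma adjusted p with the block 0.0139, without it 0.9996) and was the only one of the 11 to pass. Over all probe sets 0.286% were called higher there with the block. Group means of Ctsk were 8.28 ± 0.41 with the empty vector, 6.90 ± 0.33 with the full-length fusion, 7.08 ± 0.31 with delFG1 and 7.61 ± 0.40 with delFG2 on the log2 scale (SD, n = 2). Between delFG2 and delFG1, 0 of 11 passed in either fit and 0 had an unadjusted p under 0.05, with 0.54 for Ctsk and 0.36 for Ctss. Cathepsins also differed between the numbers, Ctsk by 0.52, Ctsh by 0.36, Ctss by 0.34 and Ctsb by 0.26, all higher in the arrays numbered 2 with the block.

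Other cystatins were also measured. Of 14 measured genes of the secreted cystatins and of the related plasma proteins, 0 passed without the block and Cst7 alone with it, which rose with the full-length fusion by 0.35 ± 0.09 (SE; limma adjusted p with the block 0.0162). Cst7 encodes cystatin F, an inhibitor that acts inside the granules of immune cells. Cst3, the widespread cystatin C, differed by 0.03 ± 0.07 (limma adjusted p = 0.93), and the median of the 14 was 0.02. Of the cluster's other genes with a probe set of their own, Csta2 differed by -0.46 (adjusted p 0.295, and 0.0484 with the block) and Csta1 by -0.07 at a signal near the lowest of the array.

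Genes beside the cluster were compared as well. Of the 10 nearest measured genes on either side, 20 in all, 0 passed in either fit between full-length fusion and empty vector (1 had an unadjusted p under 0.05), with a median of 0.00. The smallest p-values there were those of Cd86 (-0.42), a costimulatory receptor of antigen-presenting cells, Hcls1 (-0.18), Iqcb1 (0.31) and Dtx3l (0.19). The same count held between delFG2 and delFG1, with 0 of 20 past the threshold and a median of -0.08. Of 20 genes around Cstb, 0 passed in either fit between full-length fusion and empty vector, and 1 had an unadjusted p under 0.05.

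Of 13 further protease inhibitors of myeloid cells, 0 passed without the block between full-length fusion and empty vector. With it Anxa1 (-0.86), Wfdc21 (-0.70) and Serpinb6a (-0.63) fell and Slpi (0.72), an inhibitor of neutrophil serine proteases, rose.

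Markers of several myeloid cells moved beside the stefins, and their part in the result was not tested. Between full-length fusion and empty vector, 964 of all 23410 probe sets were lower and 487 higher with the block. Of 20 neutrophil markers, 0 passed without the block between full-length fusion and empty vector, 11 were lower and 2 higher with it, and the median was -0.40. The smallest p-values were those of the integrin gene Itgam (-0.45), the granule protein genes Olfm4 (-1.50) and Ltf (-0.75) and the chemokine receptor gene Cxcr2 (-1.09). Prtn3 (0.24) and Ctsg (0.19), both for proteases of the first granules to form, were the 2 higher and were named after their values were seen. The summed intensity of the 20 was 88700 to 101700 with the empty vector, 74730 to 89630 with the full-length fusion, 74770 to 90330 with delFG1 and 88670 to 98650 with delFG2. Between delFG2 and delFG1, 6 of the 20 were higher with the block, beside 0.367% of all probe sets. The median of the 20 was 0.39, beside 0.91 for stefin A. Arrays numbered 2 were also higher for these 4 genes, by 0.21 for Itgam and 0.87 for Olfm4. Monocyte markers had 6 of 12 lower and 1 higher with the block between full-length fusion and empty vector, with a median of -0.26. Among the lower ones were Mrc1 at -1.15 and Msr1 at -1.08. The higher one was Ccr2, with log2 means of 8.72 with the empty vector and 9.81 with the full-length fusion. Of the others, eosinophil markers had 4 of 7 lower (median -0.46), mast cell markers 4 of 12 lower and 1, Ms4a2, higher (-0.11), and megakaryocyte markers 3 of 6 lower (-0.42), of which Ppbp (-1.63) also passed without the block.

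Keratinocyte markers, listed because stefin A is also a skin protein, had 0 of 8 past the threshold in either fit and a median of -0.04, and their summed intensity was 717.9 to 862.6 over all arrays. Lymphoid markers had 1 of 10, Thy1, higher with the block (median 0.07), stroma and endothelium markers 1 of 8, Lepr, higher (-0.02) and erythroid markers 1 of 5, Rhag, lower (-0.06).

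**Figure D4:**
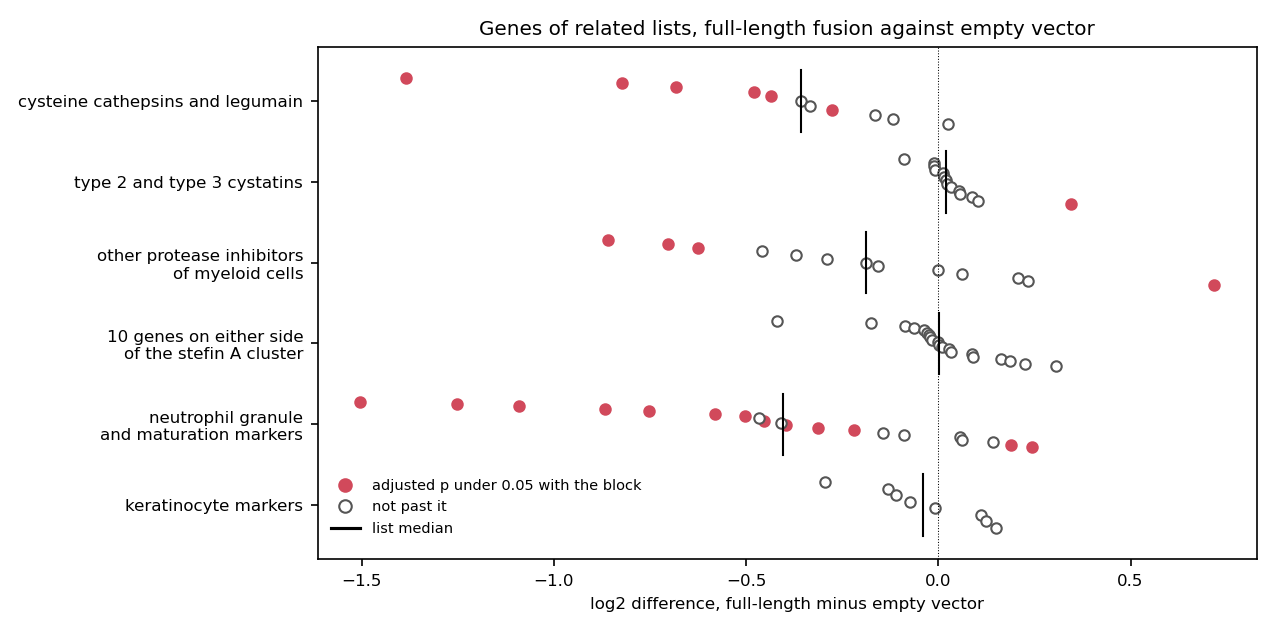
Log2 difference between full-length fusion and empty vector for each measured gene of 6 lists, with filled points for genes past an adjusted p of 0.05 with the number as a block, open points for the others and a bar at the list median. The cathepsins with legumain (median -0.36) and neutrophil markers (-0.40) lie to the left. The other cystatins (0.02), the genes beside the cluster (0.00) and the keratinocyte markers (-0.04) lie around 0.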

How the data were processed

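The values the authors deposited are linear intensity values for 28853 probe sets on 8 arrays. The background correction, summary and normalisation behind them are not stated. Extraction was with an RNeasy kit and labelling with a GeneChip WT kit, per the labels' protocols. Array medians were 80.7 to 83.2 and the lowest intensity was 18.3; the number of arrays limits the precision. Values were taken as log2(intensity + 1), with no further normalisation or filter.

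Probe sets were named from the platform annotation: 21789 carried 1 symbol, 1621 several and 5443 none. The 23410 named ones were tested, including those with several symbols, since stefin probe sets are shared. Group differences came from limma 3.58.1 under R 4.3.3 (lmFit, eBayes with an intensity trend), fitted to all 8 arrays with 4 group means, two-sided, with Benjamini-Hochberg adjustment and a threshold of 0.05. Residual degrees of freedom were 4 (prior 4.52), and 3 (prior 7.29) with the number in the labels as a block. Arrays of 1 number deviated together: across genes, deviations from the group mean had r of 0.4 to 0.649 over the 6 pairs of groups. The numbers in the labels were therefore taken to pair the arrays. The fit without the block was checked on simulated data in which the arrays varied independently. The fit with the block was not checked in this way.

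Members and gene lists were chosen with earlier results of these data known. All members are named; lists give counts and up to 4 genes with the smallest p, or all cathepsins and cystatins, and likeness is Pearson's r over 8 arrays. Genes with several probe sets are represented by the brightest. Promoters come from a RefSeq table. Alternatives and leaving out each array are given in the closing section.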

Additional observations from a re-analysis of the deposited data

Results flagged for a closer look

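The 6 stefin A probe sets differed between the mutants in the test of delFG2 against delFG1 with the number as a block, while that without the block called 0. The log2 differences were 1.32 for Stfa3, 1.11 for Stfa2, 0.97 for the probe set shared by Stfa1, Cstdc5 and Cstdc6, 0.85 for that of Stfa2l1 and Stfa2, 0.82 for Cstdc6 and 0.78 for Csta3. Both numbers showed the direction in 6 of 6 probe sets. This must hold because their arrays did not overlap, as for 11.5% of all probe sets. The genes may have been chosen with results for the mutants known, so the test may not be free of that choice. Because probe sets of the cluster can read several copies, these are not 6 independent observations. Groups of 2 arrays are too small to look for single outlying arrays.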

How the results depend on the processing

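The medians of the stefin A probe sets and the differences of Cstb stayed within 1 SD of the spread between arrays under the alternatives tried (scaling, pseudocount, filter, choice of probe sets, trend, arrays fitted, and each array left out). With 2 arrays a group, leaving 1 out always moves the group mean by less than the SD of those arrays. For arrays left out, staying within 1 SD is therefore no sign of stability, and the ranges below are the guide. The median for full-length fusion minus empty vector ranged from -1.61 to -1.33 over the settings that keep all arrays of the groups compared and from -1.56 to -1.23 when 1 array was left out; for delFG2 minus delFG1 the ranges were 0.90 to 0.97 and 0.68 to 1.28. Small differences rested on single arrays: leaving out 1 array gave stefin medians of -0.61 (without delFG2 array 2) to -0.15 (without delFG2 array 1) for delFG2 minus empty vector and -0.22 (without delFG1 array 2) to 0.47 (without delFG1 array 1) for delFG1 minus full-length, where the sign turned. For Cstb, leaving out empty vector array 1 or 2 gave -0.52 or -0.03 for full-length minus empty vector, -0.55 or -0.06 for delFG1 minus empty vector, and -0.41 or 0.08 for delFG2 minus empty vector. Cstb also turned sign in the comparisons among the fusion groups, at -0.19 to 0.13 for delFG1 minus full-length (without full-length array 1 or 2), and at -0.09 to 0.32 for delFG2 minus full-length and -0.06 to 0.35 for delFG2 minus delFG1 (without delFG2 array 2 or 1). The difference of the numbers had a median of 0.42 over the 7 members and 0.37 to 0.49 under the alternatives.

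Calls depend on the replicate block. For delFG2 minus delFG1 the stefin A count was 0 under all these alternatives without the block and 6 with it. With the block it was 6 with median centring, 5 with quantile normalization, a pseudocount of 32 or all probe sets of the table, 5 with a mean log2 of at least 6, which drops Csta3, 4 of 4 with probe sets of 1 symbol, 0 without an intensity trend, and 0 to 6 when 1 array was left out. These combinations with the block were chosen after seeing the data. In the other comparisons the block count when 1 array was left out was 5 to 6 for full-length minus empty vector, 6 for delFG1 minus empty vector, 1 to 6 for delFG2 minus full-length, and 0 to 4 for delFG2 minus empty vector, where quantile normalization and no intensity trend also gave 0. Without the block, Stfa3 alone passed for delFG1 minus empty vector, and 0 did with a pseudocount of 32, a mean log2 of at least 6, quantile normalization, all probe sets of the table or no intensity trend.

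Of all listed genes, 1 (Ppbp) passed for full-length minus empty vector, against 47 with the replicate block, 2 with median centring, 0 without an intensity trend and 0 to 1 when 1 array was left out. Over all probe sets the counts without and with the replicate block were 25 and 1451 for full-length minus empty vector, 2 and 18 for delFG1 minus full-length, 6 and 102 for delFG2 minus full-length, 26 and 1352 for delFG1 minus empty vector, 1 and 102 for delFG2 minus empty vector, and 0 and 105 for delFG2 minus delFG1. Without an intensity trend or the block they were 8, 2, 2, 3, 0 and 0, in the same order. Leaving out 1 array gave 7 to 32, 1 to 4, 1 to 6, 0 to 32, 0 to 2 and 0 to 4. The causes were not tested. With 2 arrays a group and no detection calls, small differences of dim probe sets such as Csta3 cannot be resolved.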
